A study of Mus musculus with 3 samples.

Results

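Box C/D snoRNAs are short nucleolar RNAs, and the mouse genes for them carry symbols that start with Snord. The members were all genes of the deposited transcript tables with such a symbol and the transcript class snoRNA. There were 98 of them under 97 symbols, among 55450 annotated genes, on 17 chromosomes, and they were 64 to 238 bases long with a median of 84 bases. RNA of the chromatin fraction was measured by total RNA-seq after ribosomal RNA depletion, in macrophages grown from bone marrow of C57BL/6J mice and treated for 15 min with lipid A at 100 ng/ml. The 3 libraries form 1 group of biological replicates 1, 2 and 3, they carry 1 donor label, and no untreated library was analysed here, so the values describe a state and not a response. Libraries 1, 2 and 3 were made from 1 µg, 250 ng and 500 ng of RNA, and the labels give a size range of 250 to 400. The age and sex of the mice are not recorded.

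A box C/D snoRNA holds a C box near its 5′ end and a D box near its 3′ end, which are brought together in the folded RNA and bind Snu13, Nop56, Nop58 and the methyltransferase fibrillarin. A stretch next to the D box, or to an internal copy of it, pairs with ribosomal or spliceosomal RNA and places a 2′-O-methyl group there, while a few members act in cleavage of the ribosomal RNA precursor instead. Most vertebrate members lie in introns of host genes, often genes of ribosomal proteins or of long non-coding RNAs, and are trimmed out of the spliced intron. Chromatin RNA can therefore hold the mature snoRNA, the excised intron and the unspliced host transcript, and a read inside the snoRNA does not tell these apart.

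The sequences of the 5 members with the highest levels are given first, because most reads of the class came from them. They are transcript sequences of GENCODE M21 for the mm10 assembly, written 5′ to 3′ on the RNA's strand. Capitals mark the C box TGATGA where it lies within the first 15 bases and the D box CTGA where it lies within the last 15. Snord15b (chr7:99479563-99479707, minus strand) and Snord15a (chr7:99482785-99482932, minus strand) are the copies of U15 and lie in introns of Rps3. Snord17 (chr2:144265979-144266216, minus strand) lies in an intron of Snx5 and is the longest member. Snord22 (chr19:8725866-8725991, plus strand) is U22 and lies in the non-coding host Snhg1. Snord21 (chr5:107904555-107904648, plus strand) lies in Rpl5.
Snord15b: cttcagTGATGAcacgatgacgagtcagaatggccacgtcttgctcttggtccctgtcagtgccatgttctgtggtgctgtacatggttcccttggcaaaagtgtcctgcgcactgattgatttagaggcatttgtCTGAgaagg
Snord15a: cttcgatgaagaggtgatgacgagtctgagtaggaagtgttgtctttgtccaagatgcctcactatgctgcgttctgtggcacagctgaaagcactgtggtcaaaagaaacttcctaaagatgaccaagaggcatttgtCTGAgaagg
Snord17: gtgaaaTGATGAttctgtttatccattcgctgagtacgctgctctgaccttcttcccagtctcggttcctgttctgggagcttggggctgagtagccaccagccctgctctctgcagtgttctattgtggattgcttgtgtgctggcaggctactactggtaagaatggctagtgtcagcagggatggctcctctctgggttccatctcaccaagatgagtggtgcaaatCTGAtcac
Snord22: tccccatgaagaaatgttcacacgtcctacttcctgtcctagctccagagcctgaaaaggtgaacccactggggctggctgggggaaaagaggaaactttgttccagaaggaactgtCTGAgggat
Snord21: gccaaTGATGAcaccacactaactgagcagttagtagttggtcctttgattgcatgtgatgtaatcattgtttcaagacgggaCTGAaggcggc

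Snord15b and Snord15a were identical at 107 of 162 aligned columns, 66.0%. The D box was found in the last 15 bases of all 5, and the C box within the first 15 bases of Snord15b, Snord17 and Snord21. In Snord15a and Snord22 the 6 letters TGATGA were not in that window. Over the 98 members, 64 held TGATGA in the first 15 bases and 92 held CTGA in the last 15, and 62 held both (63.3%). Some members have identical sequences, and of the 85 distinct sequences 49 held both (57.6%). Both were found in 0 of the 42 Snora genes, the H/ACA class of snoRNA, in 232 of the 1367 other genes of class snoRNA, and in 0.0476% of 6301 transcripts of other classes and the same length range. The choice by symbol did not search for these letters, but the symbols already name the box C/D and H/ACA classes. The contrast between Snord and Snora genes therefore describes the annotation and is no independent support. Each search used the RNA's own strand only.

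What could be counted differed sharply between the deposited tables. The gene table gives expected counts and TPM (transcripts per 1000000, a level per effective length), where the effective length is the number of positions at which a fragment could start. In it, 93 of the 98 Snord genes had an effective length of 0 in every library and were listed at 0. All 93 were 111 bases long or shorter, and the 5 others were 126 bases or longer. A 0 there is a property of the length and not a measurement. A second quantification, deposited as a transcript table with estimated counts, gave every member a length above 0, from 13.8 to 83.5 bases, and was used for all members beside the gene table.

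In the gene table the 5 countable members were Snord17, Snord15b, Snord22, Snord15a and Snord118, the U8 RNA of ribosomal RNA precursor processing. With detection set at 3 or more counts in every library, 4 Snord genes were detected (4.08% of the members), against a background of 30.7% of all annotated genes in that table. Snord15b had 5079, 5230 and 2336 expected counts in replicates 1, 2 and 3. Snord17 had 3536, 9653 and 2649, Snord22 had 751, 3705 and 945, and Snord15a had 646, 1656 and 562. Snord118, with 0, 7 and 1, was the member that missed the limit. The table's own posterior SD was at most 1.04 counts for any of these values, a figure that covers only how reads were assigned between transcripts.

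A few short genes took a large part of the TPM of the gene table. Of all expected counts given to annotated genes, 0.0778% ± 0.0281 fell on Snord genes (SD, n = 3), but of the TPM it was 12.7% ± 2.01. Per library the share of counts was 0.0929%, 0.0951% and 0.0454% in replicates 1, 2 and 3. The exact binomial 95% intervals were 0.0911% to 0.0948%, 0.0938% to 0.0964% and 0.0443% to 0.0465%. These intervals cover counting error within a library and not the spread between libraries. Snord22 alone reached 36654, 91112 and 56816 TPM, with effective lengths of 1.51, 1.28 and 1.06 bases. Snord15b reached 69766, 39649 and 41594 TPM with 5.35, 4.17 and 3.58 bases. At such lengths a difference of part of a base moves the TPM by a large factor, and in the second quantification the Snord share was 0.0680% ± 0.0213 of the counts and 2.41% ± 0.586 of the TPM.

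In the second quantification 47 of the 98 Snord genes were detected, 48.0%, and 37 had at least 10 counts in every library. The background was 48.1% of all annotated genes with 3 counts and 41.9% with 10 counts, so the share of detected members was near that of any gene. Of the 42 Snora genes 33 were detected (78.6%), and of the 1367 other snoRNA genes 240 (17.6%). The Snora genes are longer, with a median of 132.5 bases, and 1 of them in the gene table had an effective length of 0 throughout. The 51 undetected Snord genes comprised 14 that reached 3 counts in some but not every library, 5 with fewer counts than that throughout, and 32 at 0 in every library. Single libraries detected 48, 61 and 54 Snord genes in replicates 1, 2 and 3, and 6 genes passed in replicate 2 alone, namely Snord12, Snord14e, Snord42b, Snord61, Snord11 and Snord45c.

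Levels below are CPM (counts per 1000000) scaled by edgeR's TMM factors, divided by length to give CPM per 100 bases of the snoRNA where levels of members are compared. Shares of counts, and values of 1 gene across libraries, are not divided by length. Snord15b, which guides methylation of 28S ribosomal RNA, stood at 189, 144 and 67.9 CPM per 100 bases in replicates 1, 2 and 3 (mean 134 ± 61.4, SD, n = 3). Snord17, also a guide for 28S ribosomal RNA, stood at 83.2, 168 and 53.2 (mean 101 ± 59.5). Snord22, which is needed for processing of the 18S part of the precursor, stood at 43.4, 142 and 43.4 (mean 76.4 ± 57.1). Replicate 2 was the highest library for Snord17 and Snord22 but not for Snord15b, which was highest in replicate 1.

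Snord21 stood at 33.9, 44.6 and 26.8 CPM per 100 bases (mean 35.1 ± 8.96) and Snord15a at 25.5, 48.5 and 18.2 (mean 30.7 ± 15.8). These 5 members were apart from all others. The lowest of them was at 25.5, 44.6 and 18.2 CPM per 100 bases in replicates 1, 2 and 3, and the highest of the other 93 was at 5.53, 19.7 and 7.53. In the order of mean levels over the 47 detected members, all 46 pairs of neighbours had ranges over the libraries that overlapped, so single places in the order are not resolved. The order of the first 5 also depended on the scale, since Snord17 was first by CPM, Snord15b first per 100 bases, and Snord22 second by TPM.

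**Figure D1:**
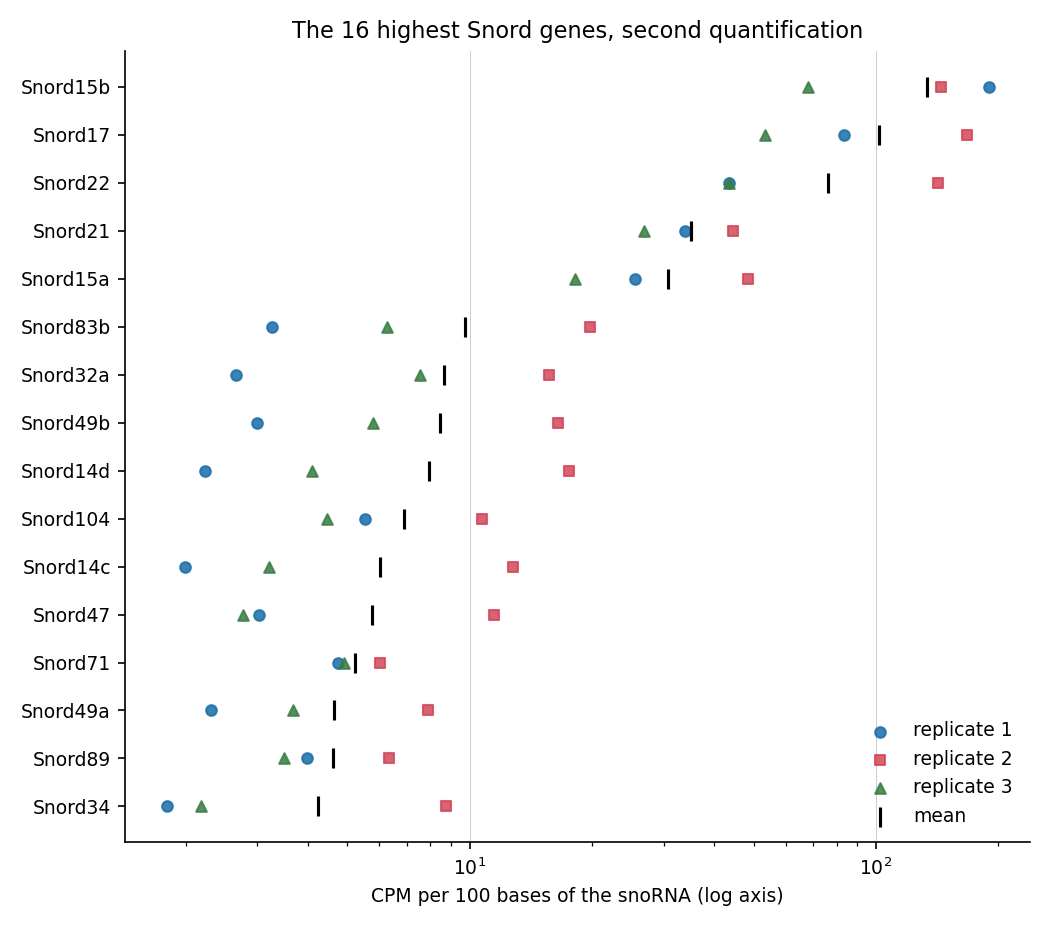
CPM per 100 bases in the second quantification for the 16 highest Snord genes, on a log axis, with 1 symbol per library and a bar at the mean of the 3 libraries. Snord15b, Snord17, Snord22, Snord21 and Snord15a have the means farthest to the right, and the squares of replicate 2 lie to the right in every row but that of Snord15b.

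The reads were concentrated on these members. Snord17 and Snord15b held 61.8% ± 9.13 of all estimated counts of Snord genes (SD, n = 3), and the 5 highest members by CPM held 91.4%, 84.1% and 82.9% in replicates 1, 2 and 3. The 10 highest held 90.7% ± 2.25 and the 20 highest 95.9% ± 1.16. The rest of the class had small counts. The median of the 47 detected members was 2.05 CPM per 100 bases on the mean of the libraries. The lowest, Snord90 in an intron of Rc3h2, had 6, 7 and 5 counts, or 0.219 CPM per 100 bases, and Snord70 in an intron of Nop58, at 0.227, was next. Not divided by length, the median over members of the mean log2(CPM + 1) was 1.34, against 7.22 for the 4 members detected in the gene table.

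Below the leading 5 came members with fewer counts. Snord83b, in an intron of Rpl3, had 61, 534 and 158 estimated counts in replicates 1, 2 and 3, or 9.75 ± 8.78 CPM per 100 bases. Snord32a in Rpl13a had 44, 375 and 168 counts, and Snord49b in the non-coding gene 2410006H16Rik had 43, 342 and 112. Snord104, for which no host gene was found in the annotation, had 77, 216 and 84, and Snord89 in the non-coding gene Gm15832, 110 bases long, had 87, 201 and 103. In Snord83b, Snord32a and Snord49b replicate 2 held more counts than the other libraries together, and in CPM it was still the highest. The sequences of 4 of these are printed because they had the highest levels per base among the members whose sequence lies in no other annotated transcript and that the gene table could not count. They are Snord83b (chr15:80078498-80078591, minus strand), Snord32a (chr7:45127382-45127464, minus strand), Snord49b (chr11:62603079-62603150, plus strand) and Snord104 (chr11:106500993-106501062, plus strand).
Snord83b: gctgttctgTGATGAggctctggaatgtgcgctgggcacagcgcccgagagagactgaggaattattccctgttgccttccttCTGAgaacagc
Snord32a: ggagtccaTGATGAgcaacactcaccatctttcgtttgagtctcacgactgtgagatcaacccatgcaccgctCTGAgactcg
Snord49b: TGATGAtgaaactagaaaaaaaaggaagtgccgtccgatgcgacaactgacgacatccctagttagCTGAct
Snord104: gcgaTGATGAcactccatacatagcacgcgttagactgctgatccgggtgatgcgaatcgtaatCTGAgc

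Several other detected members had fewer counts still. Snord82 in the nucleolin gene Ncl had 12, 126 and 36 counts in replicates 1, 2 and 3, and Snord34 in Rpl13a had 25, 176 and 41. Snord37 in the elongation factor gene Eef2 had 22, 83 and 27 counts. Snord99 in Snhg12 had 27.0, 108 and 57.2 counts. A smaller number had nearly level counts, such as Snord98 in Ccar1 with 31, 26 and 34 and Snord91a in Tsr1 with 10, 10 and 13. As replicate 2 was the deepest library, level counts are lower CPM there.

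Length went with detection, but not in a simple order. All 5 members of 120 bases or more were detected in the second quantification, 4 of the 6 of 100 bases to under 120, 15 of the 45 of 80 to 99 bases and 23 of the 42 under 80 bases. The class of 80 to 99 bases contains the 17 copies of Snord116, none of which had a count. The 5 longest members held 11314, 24868 and 8285 counts in replicates 1, 2 and 3, out of 12999, 30855 and 10749 for all 98. The labels' size range of 250 to 400 lies above the length of every member. How far size selection set which members were seen was not tested.

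**Figure D2:**
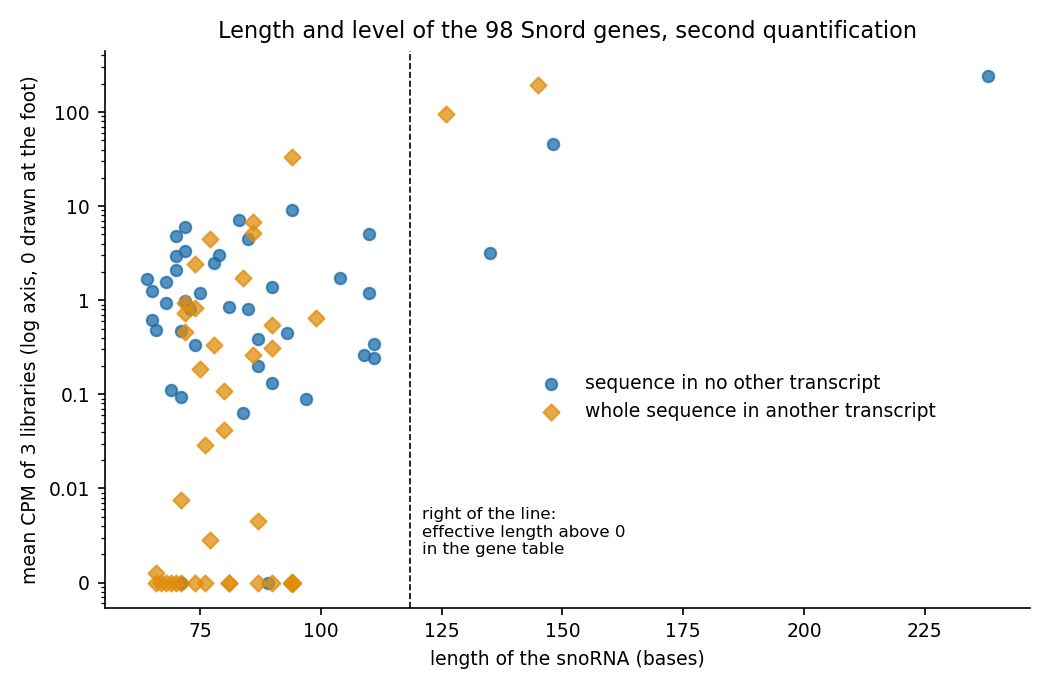
Length in bases against mean CPM of the 3 libraries in the second quantification for the 98 Snord genes, on a log axis with 0 drawn at the foot. The 4 highest members are all right of the dashed line, where the gene table could count, and most points at the foot are members whose whole sequence also lies in another transcript.

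Sequence shared with other transcripts also went with detection. For 51 of the 98 Snord genes the whole sequence is contained in at least 1 other annotated transcript, and for each of these an isoform of the host gene, often of the class retained intron, was among the carriers. Of these 51, 13 were detected (25.5%), against 34 of the 47 whose sequence is in no other transcript (72.3%). Without Snord116 the first share was 13 of 37 (35.1%). Of the 15 members at 0 in every library that are not copies of Snord116, 12 were shared in this way. The exceptions were Snord111 in Sf3b3, Snord123 in Snhg18 and Snord4a in Rpl23a. Reads of a shared stretch can be given to either transcript by the estimation, so a 0 for such a member is not evidence that the snoRNA was missing.

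In Gas5, a non-coding gene whose introns hold several box C/D snoRNAs, all members had shared sequence, and 1 of the 4 was detected. Snord47, a 28S ribosomal RNA guide, had 46.3, 254 and 57.4 estimated counts in replicates 1, 2 and 3, although 1 isoform of Gas5, with 78.6, 153 and 72.9 counts, contains its sequence. Snord78 in the same host was at 0 in every library, and its sequence is contained in 6 other transcripts of Gas5. The most counted of these 6 isoforms had 863, 1930 and 1123 counts. The 2 gene IDs named Snord80 had at most 0.169 counts in any library. Snord47 (chr1:161038082-161038158, plus strand) and Snord78 (chr1:161036984-161037049, plus strand) are printed as the counted and the uncounted member of this host, and in neither did TGATGA lie within the first 15 bases.
Snord47: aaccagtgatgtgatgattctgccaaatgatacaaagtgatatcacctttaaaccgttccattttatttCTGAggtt
Snord78: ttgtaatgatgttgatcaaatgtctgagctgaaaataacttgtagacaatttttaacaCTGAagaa

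Members of Rack1 and Eif4a2 were also at 0. For Snord95 and Snord96a of Rack1, the isoform that contains both had 531, 991 and 844 counts. Snord2 of Eif4a2 had a host at 335 ± 66.8 TPM in the second quantification (SD, n = 3). For Snord22, in contrast, the snoRNA entry took 1089, 5161 and 1468 counts although 3 isoforms of Snhg1 contain it, the highest of which had 579, 1299 and 746. The single Rps3 isoform that contains Snord15b had 266, 770 and 448 counts against 5462, 6022 and 2645 for Snord15b.

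Hosts were found for 95 of the 98 members, in 54 genes, and 18 hosts held more than 1 member. Genes of ribosomal proteins made up 14 hosts with 21 members, of which 15 were detected (71.4%), against 48.1% of all annotated genes. Non-coding hosts other than Snhg14 held 22 members with 11 detected, and hosts other than Snhg14 and the ribosomal protein genes held 57 with 29 detected (50.9%). The members without a host, Snord104, Snord118 and Snord13, were all detected in the second quantification. Snord118 and Snord13, known as U8 and U13, are known to be transcribed from promoters of their own. Within their hosts, 53 members lay in an intron of every overlapping isoform, 41 in an intron of one isoform and an exon of another, and 1, a copy of Snord116, in an exon.

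Many members lay close to the next exon of the host. The distance from the 3′ end of the snoRNA to that exon was 93.5 bases at the median over 94 members, with quartiles of 75 and 820 bases, and 49 of them lay 50 to 100 bases from it. The 94 include the copies of Snord116 in introns of Snhg14, at 1604 to 180591 bases. Vertebrate box C/D snoRNAs are known to sit at a short, fairly constant distance upstream of the acceptor splice site. The median was 83 bases for the 44 detected members and 93 bases for the 34 undetected members outside Snhg14. Of the 5 leading members, Snord17 lay 3954 bases from the next Snx5 exon, while Snord15b lay 92 bases, Snord15a 84, Snord22 75 and Snord21 68 bases from theirs.

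Members that share a host could be compared with each other, since they lie in 1 transcribed unit. In Rps3, Snord15b held 7.27, 2.92 and 3.66 times the estimated counts of Snord15a in replicates 1, 2 and 3, and 7.86, 3.16 and 4.16 times in the gene table. The lengths are 145 and 148 bases, so this is nearly a ratio per length. Snord15b was higher in all 3 libraries in both tables, while the size of the ratio was highest in replicate 1 and lowest in replicate 2. Rps3 itself stood at 26.2 ± 9.24 CPM in the second quantification (SD, n = 3) and its 2 members together at 239.5 CPM on the mean of the libraries. In TPM the values were 11.1 ± 1.58 and 9127, a wider gap that rests on the short effective lengths of the snoRNAs.

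Rpl13a, a host whose snoRNAs are known from the cellular response to lipid overload, holds Snord32a, Snord34, Snord33 and Snord35a, and all 4 were detected. Snord34 had 25, 176 and 41 estimated counts in replicates 1, 2 and 3, Snord33 had 32.4, 69.7 and 30.3, and Snord35a had 14, 60 and 36. Per base, Snord32a was above Snord34 in every library, at 1.48, 1.80 and 3.46 times. Snord34 against Snord33 changed direction between libraries, at 0.925, 3.03 and 1.62 times, and so did Snord33 against Snord35a, at 2.48, 1.24 and 0.902. Snord32a was also above Snord33 in every library, at 1.37, 5.45 and 5.61 times per base. Of the 4, only Snord33 lies whole in other transcripts, namely 2 isoforms of Rpl13a. These had 7.28, 45.9 and 30.6 counts and 3.83, 20.4 and 1.97 counts. Reads of Snord33 can be given to either, so its ratios are uncertain.

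The non-coding gene 2410006H16Rik holds Snord49b, Snord49a and Snord65, each 72 bases long, and all 3 were detected. Snord49a had 33, 164 and 71 estimated counts and Snord65 had 12, 44 and 21. Snord49b was 1.30, 2.09 and 1.58 times as high as Snord49a, and Snord49a was 2.75, 3.73 and 3.38 times as high as Snord65. The order Snord49b, Snord49a, Snord65 was the same in all 3 libraries, although replicate 2 was the highest for each of them. Snord53 against Snord92 in Wdr43, at 3.10, 3.89 and 3.05 times per base, and Snord110 against Snord57 in Nop56, at 1.88, 2.06 and 1.30 times, also kept 1 direction. The sequence of Snord57 also lies in an isoform of Nop56 with 163, 349 and 314 counts, so its ratio is uncertain.

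**Figure D3:**
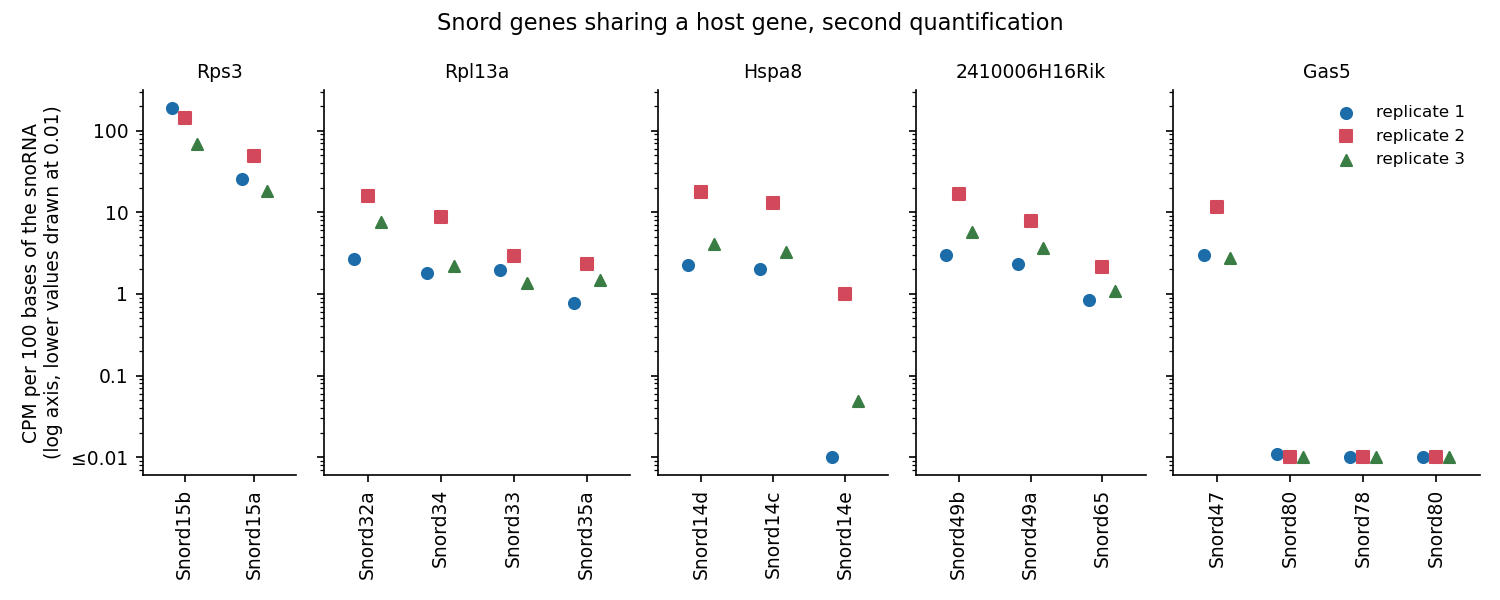
CPM per 100 bases in the second quantification for Snord genes in 5 hosts, 1 symbol per library, on a log axis with lower values drawn at 0.01. Snord15b lies above Snord15a and Snord49b above Snord49a and Snord65 in every library, and in Gas5 only Snord47 lies above the foot in more than 1 library.

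A list of names was fixed for processing of the ribosomal RNA precursor, and the part of each in cleavage was not tested. Of these names 7 were among the 98 genes: Snord118, Snord13, Snord14a, Snord14c, Snord14d, Snord14e and Snord22. Snord14b and Snord3a, also fixed names, were not among the 98. Of the 7, 5 were detected in the second quantification, where 48.0% of all members and 48.1% of all annotated genes were. Snord118 had 72, 117 and 50 estimated counts and Snord13 had 23, 83 and 30. Snord14d had 38.2, 434 and 94.5 and Snord14c had 34.1, 317 and 74.2, both in Hspa8, whose protein is the constitutive heat shock cognate chaperone. Snord14e in the same host had 0, 25.8 and 1.17 counts, and Snord14a in Rps13 had none.

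Snord14d and Snord14c are copies of U14 and near twins, identical at 84 of 86 aligned bases. Snord14d was slightly higher in all 3 libraries, at 1.12, 1.37 and 1.27 times. An Hspa8 isoform that contains all 3 U14 copies had 3350, 2377 and 1800 counts, so the split between snoRNA and host is uncertain here as well. Reads of the identical bases can be given to either twin, so the split between Snord14d and Snord14c is uncertain too. They are Snord14d (chr9:40803995-40804080, plus strand) and Snord14c (chr9:40803583-40803668, plus strand), and both boxes are in place in both.
Snord14d: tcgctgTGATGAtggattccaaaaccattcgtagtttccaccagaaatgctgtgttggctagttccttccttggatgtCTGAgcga
Snord14c: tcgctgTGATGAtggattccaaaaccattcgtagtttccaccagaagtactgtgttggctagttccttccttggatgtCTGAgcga

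Members of the imprinted Prader-Willi region, known from brain and expressed from the paternal chromosome, were not detected. The 17 copies of Snord116 lie on chromosome 7 between bases 59861731 and 59904848 within Snhg14, and not one had a count in any library. Their floor of 3 counts corresponds to 0.104 to 0.151 CPM in the second quantification. The copies have 4 distinct sequences, and 14 of them share 1 sequence with each other and with 16 further snoRNA genes, which also had no count. Their host was transcribed: Snhg14 had 1280, 1093 and 1471 estimated counts and 23.7, 7.02 and 20.1 TPM in the gene table. Snord64 and Snord107 of the same region were at 0 as well.

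Snord116l1 (chr7:59894620-59894713, minus strand) is printed as one of these uncounted copies, and both boxes lie in their windows. An annotated transcript of Snhg14 that contains it had 54.5, 119.2 and 112.3 counts. Beside Snhg14, which is also known as a neuronal transcript, the neuron markers Snap25, Syt1, Rbfox3, Tubb3 and Stmn2 were all below 1 TPM in every library of the gene table, with Syt1, Tubb3 and Stmn2 at 0.
Snord116l1: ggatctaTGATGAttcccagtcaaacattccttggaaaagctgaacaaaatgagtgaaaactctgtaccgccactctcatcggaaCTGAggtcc

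Between libraries, replicate 2 stood above the others for most members. Over the 37 Snord genes with at least 10 counts in every library, the median difference from the gene's own mean of the 3 libraries was -0.27, 0.54 and -0.25 in log2(CPM + 1) in replicates 1, 2 and 3. For all 23241 genes with as many counts the medians were -0.0051, -0.0027 and -0.0041. Replicate 2 was the highest library for 30 of the 37 Snord genes and for 8809 of the 23241, and under scaling by total counts for 23 and 2021 of them. That scaling moved the medians of all genes to 0.17, -0.27 and 0.10, and relative to these the Snord medians were -0.30, 0.56 and -0.26. The Snora genes had a median of 0.56 in replicate 2, and the 25 host genes of 0.32. Replicate 2 also had the lowest starting RNA, 250 ng, and the deepest library. The part of these in the difference was not tested, and in bulk RNA fewer cells of a kind and less RNA per cell cannot be told apart.

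The size of the shift differed among members. Of the 18 with at least 30 counts in every library, Snord14d was the most uneven, with a coefficient of variation (CV) of 105% in CPM, and Snord14c followed with 98.6%. At the other end, Snord71 in Ap1g1 had 80, 147 and 112 counts and a CV of 13.3%, and Snord53 in Wdr43 had 54, 75 and 56 counts and a CV of 13.6%. Counting error alone gives CVs of 9.70% and 12.9% for these 2. Over the 37 with at least 10 counts the median CV was 50.7%, against 15.3% from counting error.

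**Figure D4:**
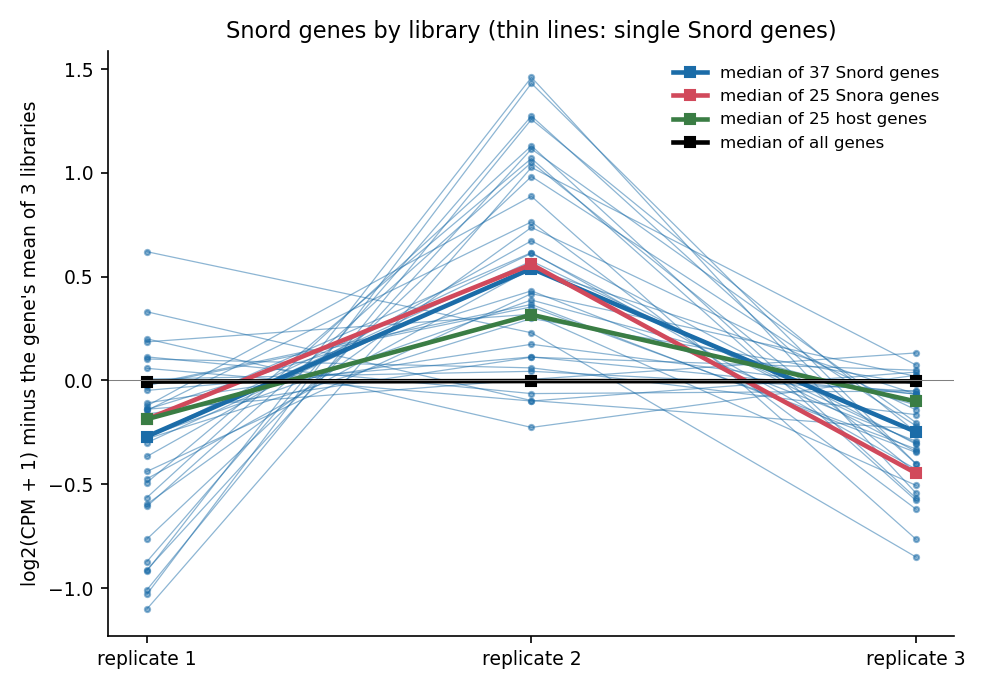
Difference of log2(CPM + 1) from each gene's mean of the 3 libraries, with a thin line for each of the 37 Snord genes with at least 10 counts in every library and thick lines for medians of 4 sets of genes. The Snord and Snora medians are highest in replicate 2, at 0.54 and 0.56, above the host genes at 0.32, while the median of all genes stays at 0.

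Summed over the class with TMM scaling, the Snord level differed by 2.68-fold between the highest and the lowest library of the second quantification. Under scaling by total counts the difference there was 1.92-fold. With TMM the summed level was 653, 1072 and 400 CPM in replicates 1, 2 and 3 of the second quantification and 803, 1168 and 428 CPM in the gene table. Replicate 3 was lowest on both. Over the 8 Snord genes of 100 bases or more with 10 counts the median difference was -0.13, 0.50 and -0.54 in log2(CPM + 1), while over the 29 shorter ones it was -0.28, 0.54 and -0.20. With TMM scaling all 8 were lowest in replicate 3, and 7 of them under scaling by total counts. Snord22 was nearly level there, at 54.7 CPM in replicate 1 and 54.6 in replicate 3, and in the gene table it was lowest in replicate 1, at 60.3 against 62.2 CPM. edgeR's biological coefficient of variation had a median of 0.334 over the 37 Snord genes and of 0.215 over all genes with at least 10 counts. With 1 group of 3 libraries no test of a library is possible, and the smallest p that a two-sided sign-flip test over the libraries could give is 0.25.

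Across genes, the level of a snoRNA followed that of its host only loosely. Over the 44 detected members with a host, in 35 hosts, Pearson's r was 0.298 and Spearman's rho 0.311 between log2(TPM + 1) of snoRNA and host on the mean of the libraries of the second quantification. Within replicates 1, 2 and 3 rho was 0.353, 0.307 and 0.245. For the 37 members under 100 bases rho was 0.517, and for the 34 members with at least 10 counts in every library it was 0.101. Of the 37, the 26 whose sequence lies in no other transcript had a rho of 0.361. In log2(CPM + 1) the rho of the 37 was 0.355. These are descriptions across genes, which are not independent: members share hosts and libraries, and levels of both hang on the same estimation. In TPM 7 of the 44 members were below their host, the farthest being Snord90 in Rc3h2, at 15.6 TPM with its host at 52.0 ± 20.1 TPM (SD, n = 3). In CPM, where length is not divided out, 39 of the 44 were below. Snord17 and Snx5 changed order with the scale, at 2746 against 608 TPM and 241 against 360 CPM on the mean of the libraries.

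**Figure D5:**
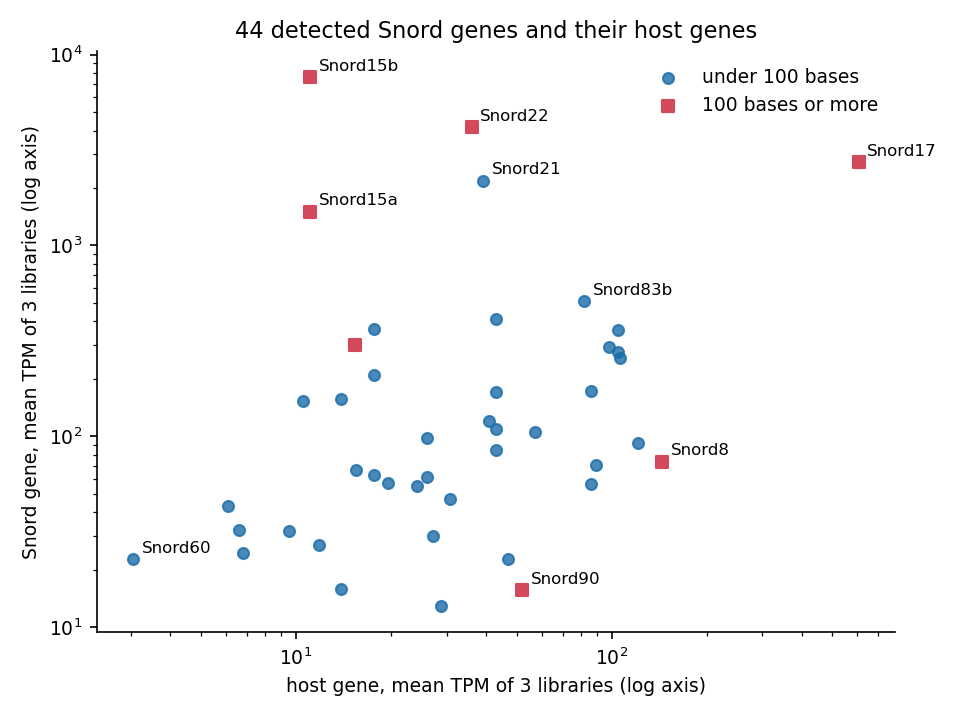
Mean TPM of the 3 libraries in the second quantification for 44 detected Snord genes against their host genes, on log axes, with squares for members of 100 bases or more. Snord15b, Snord15a, Snord22 and Snord21 lie far above hosts of 11.1 to 39.2 TPM, and Snord8 and Snord90 are among the 7 below theirs.

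The proteins of the particle were transcribed in all libraries. The 4 core genes were at or above 1 TPM in each library of the gene table: Fbl, which encodes fibrillarin, at 14.0 ± 2.99 TPM (SD, n = 3), Nop56 at 28.8 ± 4.65, Nop58 at 11.2 ± 2.36 and Snu13 at 4.34 ± 1.71. Of the 11 genes for assembly and maturation 10 were, led by Tgs1, which modifies the cap of snoRNAs with their own promoter, at 21.9 ± 7.26 and the nuclear exosome nuclease Exosc10 at 16.2 ± 1.80. The exception was Znhit3, at 1.27, 0.78 and 1.99 TPM. Of the 6 H/ACA counterparts 5 were, the exception being Nop10, and of all protein-coding genes 9345 of 22028 were. In the second quantification all 11 genes for assembly and maturation were, with Znhit3 at 11.8, 5.93 and 12.8 TPM. The core genes stood there at 15.1 (Fbl), 25.9 (Nop56), 28.9 (Nop58) and 8.78 TPM (Snu13) on the mean of the libraries. Nop56 and Nop58 are themselves hosts of Snord110 and Snord57, and of Snord70 and Snord11.

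The labelled cell type was checked on fixed markers. All 8 macrophage markers, such as Lyz2 and Csf1r, were at or above 1 TPM in every library of the gene table, with a summed level of 497 to 895 TPM. Of the markers of neutrophils, T and NK cells and B cells, 0 of 13 were, and none of these 3 lists summed to more than 1.17 TPM in a library of that table. In the second quantification all 8 macrophage markers passed again, and so did 1 of the 4 markers of T and NK cells, Cd3d, a part of the T cell receptor complex, at 16.7, 11.5 and 20.2 TPM. The gene table lists Cd3d at 0, 0.02 and 0 TPM. Cd3g, at 1.31, 0.891 and 1.65 TPM in the second quantification, was above 1 TPM there in replicates 1 and 3. So was the neutrophil marker Mpo, at 1.55, 0.817 and 2.12 TPM. The gene table lists both at 0 in every library, and the reason for these differences was not tested. Depth was 10974934 to 21376404 expected counts per library in the gene table and 17049796 to 36752291 estimated counts in the second quantification. A gene with a Snord symbol, Snord43, is annotated with the class miRNA and was left out by the rule. It had 32, 139 and 50 estimated counts.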

How the data were processed

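Total RNA-seq of 3 libraries was used, grouped and numbered as in the labels. For each library the authors deposited a gene table with expected counts, TPM, effective lengths and a posterior SD of the count (used as a score), and a transcript table of a second quantification with estimated counts and TPM, per the file headers. Per the labels and a deposited note, values refer to mm10 with GENCODE M21. Aligner, counting programs, versions and strand setting: not given in the sources used here. Antisense partners may therefore share reads. Neither table pools libraries, and 0 per-sample columns were left unused.

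Members were chosen by symbol and class, and they and all lists were chosen with earlier results of these data known. Transcripts of the second quantification were summed per gene. The gene table was to be the main source; since it gives 93 of 98 members no effective length, both are reported, and the relation to hosts uses the second alone. Counts were rounded for edgeR 4.0.16 (TMM factors 1.16, 0.814 and 1.06 in the gene table and 1.17, 0.783 and 1.09 in the second quantification; dispersion without a group term) and DESeq2 1.42.0 (size factors only), in R 4.3.3. Python 3.11.15 with numpy 2.4.6, pandas 2.3.3, scipy 1.17.1, Biopython 1.88 and matplotlib 3.10.9 did the rest. The scaling and dispersion steps were tested on simulated data.

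Detection needed 3 counts in every library, and log2 values used a pseudocount of 1, which understates differences of low genes. A host is a multi-exon gene on the same strand that spans the member. Intervals and floors cover counting error alone, because no molecular identifiers separate PCR copies from molecules. With 1 group there was no contrast and no test.

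Named members are the markers Snord22 and Snord15b, the highest, most variable and least variable members (both with at least 30 counts in every library), the lists for precursor processing and the imprinted region, and members of hosts with 3 detected members. The values of 1 other detected member are not reported here. Any others were chosen after their values were seen. Alternatives were the other quantification, other count limits, scalings and pseudocounts, and leaving out each replicate.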

Additional observations from a re-analysis of the deposited data

How the results depend on the processing

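The choice of quantification changed most. Against the gene table, the second quantification gave 47 instead of 4 detected Snord genes, 2.41% instead of 12.7% of TPM, and a median level of detected members of 1.34 instead of 7.22 in log2(CPM + 1); fewer countable genes in the gene table account for the first and last by construction. With a pseudocount of 0.25 the last value in the second quantification was 0.80, since the members are low. The number detected there was 56 with at least 1 count, 37 with at least 10, and 48 to 54 without replicates 3 and 1, and the same 47 as a number without replicate 2. The summed Snord level of replicate 1 in the second quantification, relative to the mean of the libraries, was -0.0022 in log2 with TMM, 0.0052 with DESeq2 size factors and 0.22 with total counts, so it has no stable sign. Replicates 2 and 3 kept their signs under all 3 scalings, from 0.36 to 0.71 and from -0.72 to -0.58. Spearman's rho between member and host in TPM was 0.101 with at least 10 counts, 0.227 for sequences in no other transcript, and 0.517 under 100 bases. Under 100 bases it was 0.361 for sequences in no other transcript, and 0.355 for all in CPM. The cause of these differences was not tested. Among the levels of 22 named members, that of Snord118 moved from 0.156 to 3.18 CPM between the tables, and other scalings moved none by more than 1 SD of the libraries. Without replicate 2, 12 of the 22 fell by more than 1.5 times, and 0 did so without replicate 1 or 3. In the gene table these were Snord22, from 112.0 to 61.2 CPM, and Snord118, from 0.156 to 0.033. In the second quantification they were Snord83b (9.17 to 4.47), Snord32a (7.16 to 4.23), Snord14d (6.84 to 2.72), Snord49b (6.07 to 3.17), Snord14c (5.16 to 2.24), Snord47 (4.43 to 2.23), Snord49a (3.33 to 2.15), Snord34 (2.97 to 1.39), Snord13 (1.72 to 1.14) and Snord14e (0.313 to 0.022). These counts were chosen as alternatives after seeing the data where they concern the second quantification. No paired analysis was possible because there is only 1 group. Depth limits the 51 undetected members to under 0.151 CPM in at least 1 library, beside sequence shared with host isoforms.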

Other observations

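Where both tables counted a member, its CPM was lower in the second quantification, although its counts were higher in every library. The library totals that CPM divides by were larger there. It gave 0.675 times the CPM of the gene table for Snord15b, 0.714 for Snord17, 0.740 for Snord15a and 0.859 for Snord22. In CPM Snord118 was the exception, at a mean of 3.18 against 0.156. It had 72, 117 and 50 estimated counts against 0, 7 and 1, although its sequence is in no other transcript. Its effective length in the gene table, 3.0, 2.43 and 2.05 bases, is also above that of Snord22. The reason was not tested. The pair Snord50a and Snord50b in Snhg5, identical at 71 of 72 aligned bases, had 1.34, 43.7 and 16.2 and 3.10, 28.4 and 6.64 counts, and which of the 2 was higher changed between libraries.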
